A study of Homo sapiens with 6 samples.

Results

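Long intergenic noncoding RNAs with a LINC number as their gene symbol were followed in SNU-387, an established human hepatocellular carcinoma cell line. A gene was counted as an expressed LINC RNA when its symbol was LINC followed by a number and at least 10 stranded reads were counted in at least 3 of the 6 libraries. That rule kept 188 of the 58219 gene identifiers in each file, and 8.42% of the 2233 LINC symbols among them. For 1405 of the 2233 symbols no read was counted in any library. The genes were thus chosen by their read counts in these 6 libraries, without regard to the group, and the levels below describe what was chosen.

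All 6 libraries came from stable derivatives of the same tumour line. The 3 control libraries came from cells with a control hairpin that has no target (shNT), and the other 3 from cells with a short hairpin RNA against YES1 (shYES1), a tyrosine kinase of the SRC family. The study set these against each other to describe the transcriptome of liver cancer cells with less YES1. The hairpin sequence, the number of hairpins and whether the libraries of a group came from separate cultures are not stated in the labels, so a p-value measures only how far these libraries spread, which may be technical. Libraries were made from poly(A) RNA, so noncoding transcripts without a poly(A) tail are not measured.

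Gene reads per library ranged from 11290889 to 18944148. YES1 itself averaged 179.5 ± 1.65 CPM in shNT and 44.1 ± 1.70 CPM in shYES1 (SD, n = 3 each). CPM are gene counts divided by the library's total, adjusted by TMM for differences in composition. The log2 fold change of YES1, shYES1 over shNT, was -2.02 (edgeR adjusted p = 7.93e-40). Among 8 hepatocyte markers, TTR and HNF4A had no reads, ALB averaged 0.0211 CPM in shNT and 0.0285 CPM in shYES1, and only TF and SERPINA1 had enough reads to be tested, so these cells largely lacked the markers of the labelled tissue. The 8 markers summed to 20.7 to 24.0 CPM in shNT and 19.8 to 22.0 CPM in shYES1. The summed level of VIM, CDH2 and FN1, genes of mesenchymal cells, was 25559 to 28199 CPM in shNT and 16557 to 16726 CPM in shYES1, nearly all of it FN1. FN1 and VIM were lower in shYES1, and CDH2 was higher, at 542.3 CPM in shNT and 706.9 CPM in shYES1 (log2 fold change 0.38, edgeR adjusted p = 7.59e-19). PTPRC and CD68, markers of leukocytes, summed to at most 1.13 CPM in any library, and the endothelial PECAM1 and CDH5 to 24.3 to 25.3 CPM in shNT and 21.7 to 21.9 CPM in shYES1. The part of these marker levels in the LINC RNA results was not tested.

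Most long intergenic RNAs are transcribed by RNA polymerase II, capped, spliced and polyadenylated like messenger RNAs, but they are usually less abundant and more restricted to particular cell types. Many are kept in the nucleus, where the RNA exosome and its adaptors degrade part of them. Some start at the promoter of a coding gene and run away from it on the other strand, while others lie far from any coding gene and have promoters of their own. The LINC number is a placeholder name given by position, and for most of these genes no function is established.

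The 188 genes are not all intergenic by annotation. GENCODE release 29 on GRCh38 types 149 as lincRNA, 13 as processed transcripts, 11 as antisense, and 8 as transcribed pseudogenes. Of the rest, 2 are typed as bidirectional promoter RNAs, 2 as sense overlapping, 1 as sense intronic and 2 as protein coding, LINC02693 and LINC03040, which that release still names C17orf51 and C6orf223. With the names of that release, 164 genes would be members, of which 145 are among the 188.

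At the edge of the rule the reads were few. Just inside it, LINC01303 had 10, 10 and 10 reads in shNT and 19, 9 and 20 reads in shYES1, and LINC02863 had 7, 6 and 13 reads in shNT and 10, 5 and 11 reads in shYES1. Just outside it, LINC00840 had 9, 10 and 10 reads in shNT and 6, 6 and 4 reads in shYES1. LINC01234, described in several cancers, had 9, 9 and 11 reads in shNT and 9, 3 and 5 reads in shYES1, and so was left out as well. In 145 of the 188 genes all 6 libraries reached 10 reads, and in 40 others some libraries of both groups did. LINC01050 and LINC01271 passed through the shNT libraries only and LINC01489 through the shYES1 libraries only. Those 3 could hardly have passed without differing between the groups, and they are counted apart below. Some of the 40 came close to this. LINC00589 had 15, 13 and 19 reads in shNT and 6, 2 and 11 reads in shYES1, and stays in the counts below. LINC01605 and LINC02863 fell under the read filter of the test, which left 186 tested LINC RNAs.

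The expressed LINC RNAs were a small part of the transcriptome. Together they held 0.0892% to 0.0904% of the gene reads in the shNT libraries and 0.0861% to 0.0872% in the shYES1 libraries. On the TMM scale their summed level was 936.7, 921.9 and 934.8 CPM in shNT and 837.2, 831.2 and 844.2 CPM in shYES1. The groups did not overlap, and the mean sum was 931.1 ± 8.04 CPM against 837.5 ± 6.49 CPM (SD, n = 3 each). The size of this gap depends on the scaling, since the shares of gene reads before TMM differed less in proportion. In bulk RNA a lower level can mean fewer cells that express a gene or less of its RNA per cell, and these cannot be told apart. The 10 genes with most reads held 30.1% of the 78524 reads counted on all 188. The mean level was at least 5 CPM for 52 genes and under 1 CPM for 35.

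Per kilobase of exon, the median LINC RNA was at 1.05 CPM per kb and the 12035 tested protein-coding genes at a median of 5.82 CPM per kb. The LINC RNAs spread from 0.0448 to 32.7 CPM per kb. A level of 1 CPM per kb was reached by 52.1% of them and by 85.1% of the tested coding genes. The exons of a LINC RNA covered a median of 2654.5 bases in 4 blocks, and those of a coding gene 5217 bases in 11 blocks. A single exon block made up 12.8% of the LINC RNAs and 2.19% of the coding genes. The median GC content of the longest transcript was 47.5% in LINC RNAs and 47.9% in coding genes.

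**Figure D1:**
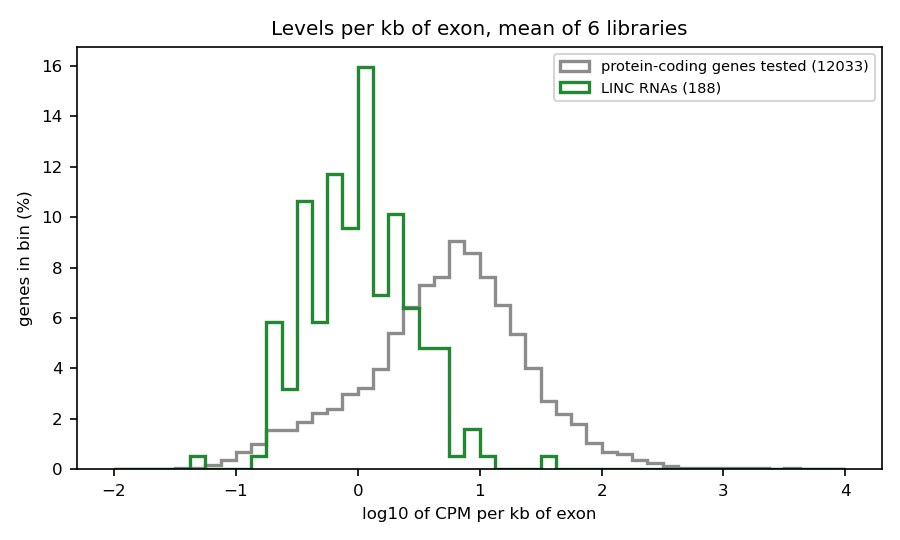
Level of the 188 expressed LINC RNAs and of tested protein-coding genes as the log10 of CPM per kb of exon on the horizontal axis and the share of each set per bin, in percent, on the vertical axis. The median of the LINC RNAs is 1.05 CPM per kb and that of the coding genes 5.82, and the 2 distributions overlap.

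LINC01436 stood highest per length at 32.7 CPM per kb, averaged over both groups. It lies at chr21:36005338-36007838 on the plus strand, next to the outermost annotated start of RUNX1. It had 28.0, 29.1 and 28.0 CPM in shNT and 40.2, 41.5 and 38.8 CPM in shYES1. All 3 shYES1 libraries were above all 3 shNT libraries, with a log2 fold change of 0.49 (SE 0.0550, edgeR adjusted p = 7.14e-11). The next levels were 10.4 CPM per kb for LINC00674, 9.69 for LINC02506, 9.46 for LINC00996 and 8.34 for LINC00667. LINC00888, LINC00941, LINC03060, LINC02820 and LINC00623 followed at 6.73, 5.53, 5.22, 5.21 and 5.17 CPM per kb, the last 3 of them almost level.

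These leading genes did not move as a block. LINC00667, at chr18:5237826-5246508, had 64.8, 62.9 and 61.7 CPM in shNT and 48.9, 46.4 and 48.3 CPM in shYES1. It was lower in every shYES1 library, by 0.39 on the log2 scale (edgeR adjusted p = 1.14e-10). LINC02506, which lies 850592 bases from the nearest coding gene, PCDH7, had 6.79, 7.11 and 6.97 CPM in shNT and 7.49, 7.44 and 6.90 CPM in shYES1. Its groups overlapped and it was not called (log2 fold change 0.06, edgeR adjusted p = 0.691). Of the top 10 per length, LINC01436 and LINC03060 rose, LINC02506 and LINC02820 were not called, and the other 6 fell. All but LINC02820 had a mean of at least 5 CPM. Of all tested genes at that level 75.0% were called, so the number of calls here is near the background. The calls on LINC00888 and LINC00623 were lost with DESeq2 (adjusted p = 0.0772 and 0.0770) and with library-size scaling (0.155 and 0.0883). The call on LINC00888 was also lost without shYES1 library 2 (0.0829), and that on LINC00623 with unstranded counts (0.219).

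In the test of shYES1 against shNT, 28 LINC RNAs were higher and 63 lower at an adjusted p under 0.05, and 95 were not called. The call rate was 48.9%, against 65.3% of all 14239 tested genes (32.5% higher, 32.8% lower). The share called differed with level. Among the 134 LINC RNAs with a mean under 5 CPM, 16 were higher and 35 lower (38.1%), and of all 3631 tested genes under 5 CPM 36.9% were called, 14.7% higher and 22.2% lower. Among the 52 LINC RNAs of at least 5 CPM, 12 were higher and 28 lower (76.9%), and of all 10608 tested genes of at least 5 CPM 75.0% were called, 38.5% higher and 36.5% lower. Of the 329 tested genes that GENCODE types as lincRNA and that are not members, 38.3% were called, 10.6% higher and 27.7% lower. Without the 3 genes that passed through 1 group only, 27 LINC RNAs were higher and 61 lower of 183.

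In both level classes the share of LINC RNAs called was near that of all tested genes of the class. The split by direction differed more. Of the LINC RNAs of at least 5 CPM 23.1% were higher and 53.8% lower, against 38.5% and 36.5% of all tested genes there. The median log2 fold change at that level was -0.25 for LINC RNAs and 0.02 for all tested genes. Under 5 CPM 11.9% were higher and 26.1% lower, against 14.7% and 22.2%. Whether these splits differ was not tested. The median log2 fold change was -0.23 over the LINC RNAs, -0.08 over all tested genes under 5 CPM and -0.16 over the other lincRNA genes. It was -0.00469 over all tested genes. Scaling by library size instead of TMM moved the split to 36 higher and 50 lower among LINC RNAs and, among all genes, from 4623 higher and 4676 lower to 5799 higher and 3762 lower. That scaling shifted the median of all genes to 0.09. The groups did not overlap for 103 of the 186 LINC RNAs (55.4%), against 67.9% of all tested genes and 42.4% of those under 5 CPM. A change of at least 2-fold was called for 19 of the 186 LINC RNAs, 3 higher and 16 lower. Without the 3 genes that passed through 1 group only it was called for 2 higher and 14 lower. These counts are not free of the choice by reads, since LINC00589, which its shNT reads alone would have admitted, is among the 14. Of all 14239 tested genes 356 were called at least 2-fold higher and 886 lower. Of the 3631 under 5 CPM these were 196 and 313.

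**Figure D2:**
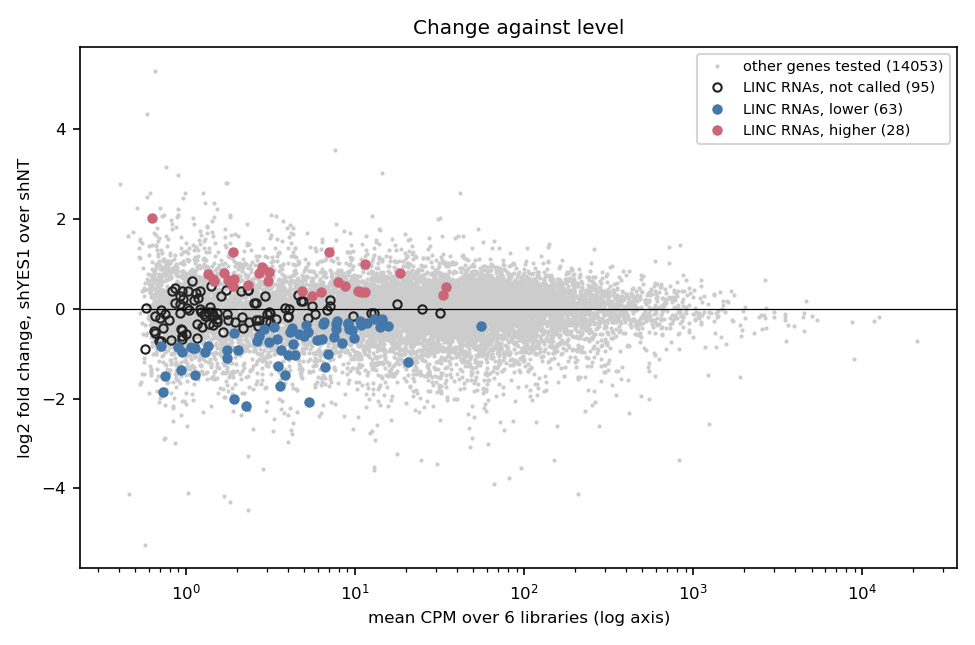
Log2 fold change, shYES1 over shNT, against mean CPM (log axis) for the 186 tested LINC RNAs, coloured by call, over all other tested genes in grey. The 63 lower LINC RNAs reach down to -2.17 and the 28 higher ones up to 2.02. That highest value is LINC01489, which passed the read rule through the shYES1 libraries only, and LINC02701 follows at 1.28.

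The 3 largest falls came from genes far from any coding gene. LINC02541 lies at chr6:113616927-113650090 on the minus strand, 207272 bases from MARCKS, a membrane-bound substrate of protein kinase C. It had 3.15, 4.39 and 3.61 CPM in shNT and 1.03, 0.684 and 0.715 CPM in shYES1. Every shYES1 library was below every shNT library, a log2 fold change of -2.17 (SE 0.233, edgeR adjusted p = 2.18e-11). LINC02015 lies at chr3:177816865-177899224 on the plus strand, 373708 bases from KCNMB2. It had 9.29, 8.10 and 8.68 CPM in shNT and 1.77, 2.05 and 2.30 CPM in shYES1, a log2 fold change of -2.07 (SE 0.147, edgeR adjusted p = 5.06e-17). LINC02454 lies at chr12:65602869-65612997 on the plus strand, 111439 bases from MSRB3, a methionine sulfoxide reductase. It had 3.15, 3.33 and 2.72 CPM in shNT and 0.730, 0.684 and 0.817 CPM in shYES1, with groups well apart and a log2 fold change of -2.0 (SE 0.241, edgeR adjusted p = 5.92e-10). The coding genes nearest to LINC02541 and LINC02454 went in different directions: MARCKS was lower (-0.62) and MSRB3 higher (0.56), while KCNMB2 had too few reads to be tested.

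The start regions of those 3 genes are shown because they fell most. Each is the RefSeq window on GRCh38.p14 from 250 bases before to 50 after the start, read 5′ to 3′ on the gene's strand. Capitals mark a match on either strand to the GC box (GGGCGG), the CCAAT box or the TATA box (here TATAAA). These motifs share no overlap in the windows printed. The first window, chr6:113650026-113650325 on the minus strand, holds none of these motifs and 2 CpG. The second, chr3:177816615-177816914, holds 3 CCAAT boxes and 2 CpG, and the third, chr12:65602619-65602918, 1 GC box and 7 CpG, both on the plus strand.
LINC02541: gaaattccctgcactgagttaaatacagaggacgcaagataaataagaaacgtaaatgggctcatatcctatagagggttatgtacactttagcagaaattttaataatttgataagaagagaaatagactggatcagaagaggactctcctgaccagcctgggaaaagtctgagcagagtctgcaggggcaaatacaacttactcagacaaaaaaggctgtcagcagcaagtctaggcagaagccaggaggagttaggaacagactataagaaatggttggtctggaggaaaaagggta
LINC02015: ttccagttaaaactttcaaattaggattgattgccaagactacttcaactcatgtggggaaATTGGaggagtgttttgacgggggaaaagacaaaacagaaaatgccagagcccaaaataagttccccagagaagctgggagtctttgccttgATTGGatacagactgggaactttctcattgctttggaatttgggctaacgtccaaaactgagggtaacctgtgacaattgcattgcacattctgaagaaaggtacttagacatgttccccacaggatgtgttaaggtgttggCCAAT
LINC02454: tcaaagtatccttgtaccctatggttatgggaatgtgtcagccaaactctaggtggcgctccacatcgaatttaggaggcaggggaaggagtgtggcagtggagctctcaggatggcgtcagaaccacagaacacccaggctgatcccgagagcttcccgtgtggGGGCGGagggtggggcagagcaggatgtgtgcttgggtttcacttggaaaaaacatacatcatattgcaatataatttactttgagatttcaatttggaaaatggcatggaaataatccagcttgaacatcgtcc
A median promoter of the 27305 in the RefSeq table holds 14 CpG, so all 3 windows were poorer in CpG than that. Of all promoters in the table, 44.6% hold a GC box, 35.7% a CCAAT box and 12% a TATA box. A match in the letters is a description and no evidence of binding.

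Further falls of at least 2-fold with a mean of 1 CPM or more were spread over 8 chromosomes. LINC02725, at chr11:128096042-128183554 and 275207 bases from ETS1, had 6.22, 5.90 and 4.75 CPM in shNT and 1.64, 0.941 and 2.15 CPM in shYES1 (log2 fold change -1.73, edgeR adjusted p = 3.86e-11). LINC01505, a 23-block gene at chr9:105993310-106740875 with the miRNA gene MIR8081 inside, had 6.30, 4.62 and 5.96 CPM in shNT and 2.19, 2.40 and 1.63 CPM in shYES1 (-1.48, edgeR adjusted p = 2.82e-10). Its exons overlap a second identifier of the same name on the same strand, so reads may have been lost as ambiguous. LINC02154, on chromosome X at 13266048 to 13303452, had 8.48, 9.99 and 9.69 CPM in shNT and 4.38, 3.34 and 3.63 CPM in shYES1 (-1.30, edgeR adjusted p = 1.42e-12). In each of these 3 genes the groups were apart by more than the spread within them. LINC02475 (-1.46), LINC03052 (-1.27), LINC03014 (-1.09), LINC01348 (-1.02) and LINC03033 (-1.02) completed the 12 largest falls at a mean level of 1 CPM or more, with edgeR adjusted p from 1.04e-08 for LINC03052 and 2.04e-07 for LINC03033 to 0.000167 for LINC03014. Outside those 12, LINC00589 (-1.49) and LINC01145 (-1.01) also fell by at least 2-fold.

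LINC00996 combined a fall of this size with a high level. It lies at chr7:150433654-150448140, beside the GIMAP cluster of immune-associated GTPase genes. It had 30.7, 27.2 and 27.9 CPM in shNT and 12.7, 11.7 and 12.9 CPM in shYES1, a log2 fold change of -1.19 (SE 0.0728, edgeR adjusted p = 2.59e-19). All shYES1 libraries were below all shNT libraries. GIMAP8, which lies 2490 bases away on the same strand, was lower too, at 2.99, 3.48 and 2.79 CPM in shNT and 1.95, 1.88 and 1.84 CPM in shYES1 (-0.70, edgeR adjusted p = 0.00151).

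At a mean of 1 CPM or more, the largest rise was smaller in log2 units than the largest fall. LINC02701, at chr11:68870664-68874542 and 16734 bases from the mitochondrial ribosomal protein gene MRPL21, had 4.04, 3.48 and 4.56 CPM in shNT and 9.68, 10.2 and 9.76 CPM in shYES1. The groups were far apart, with a log2 fold change of 1.28 (SE 0.123, edgeR adjusted p = 9.38e-13). LINC01503, at chr9:129332300-129359538, is described as a growth-promoting RNA in squamous carcinomas. It had 1.45, 0.757 and 1.14 CPM in shNT and 2.74, 2.40 and 2.81 CPM in shYES1 (1.26, SE 0.236, edgeR adjusted p = 7.81e-06). LINC01588, at chr14:49927571-50092643, had 8.08, 8.70 and 6.46 CPM in shNT and 15.9, 14.2 and 15.3 CPM in shYES1 (0.99, edgeR adjusted p = 2.96e-12). LINC00639, at chr14:38749339-38948273, had 12.6, 13.1 and 14.4 CPM in shNT and 23.0, 22.8 and 24.4 CPM in shYES1 (0.80, edgeR adjusted p = 3.43e-13). Both chromosome 14 genes were higher in every shYES1 library, and they lie more than 10 megabases apart.

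The remaining named rises were LINC00857 (0.94), LINC01443 (0.81), LINC02057 (0.81), LINC01091 (0.80), LINC02018 (0.77), LINC02982 (0.66), LINC00882 (0.66) and LINC00957 (0.63). Several of these rest on few reads. LINC01091 lost its call without shNT library 3 (adjusted p = 0.0721). LINC02018 and LINC00957 lost it without some shNT library, LINC00957 also without shYES1 library 1 (0.0638), and with DESeq2 (0.0769 and 0.0932). The shNT libraries concerned were 2 and 3 for LINC02018 (0.0731 and 0.0973) and 1 and 3 for LINC00957 (0.0895 and 0.0710). LINC00882 lost it without shNT library 3 (0.0513) and with DESeq2 (0.0618). LINC02982 lost it with DESeq2 (0.112) and without any 1 of shNT libraries 1 and 2 (0.0555 and 0.0611) and shYES1 libraries 1 and 3 (0.0803 and 0.0601).

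**Figure D3:**
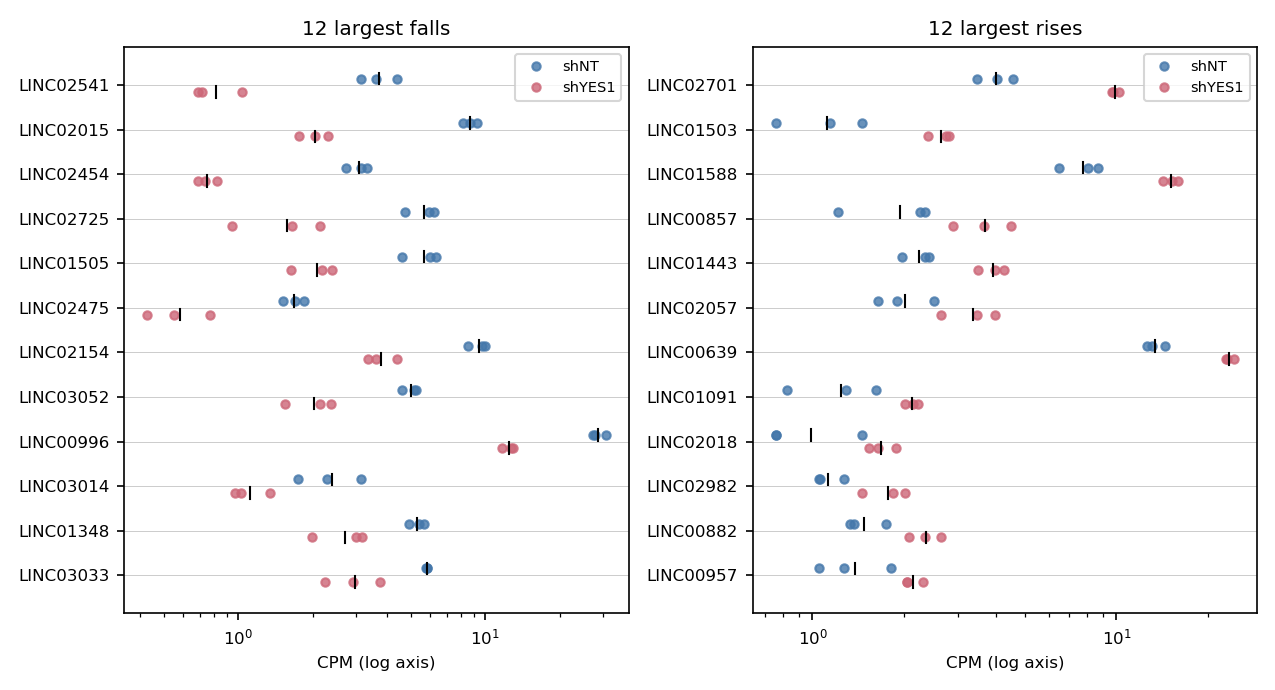
Level of the LINC RNAs with the largest changes in each of the 6 libraries, in CPM on a log axis: the 12 largest falls on the left and the 12 largest rises on the right, with shNT and shYES1 libraries in 2 colours and a black line at each group mean. The shYES1 points of LINC02541, LINC02015 and LINC02454 lie farthest to the left of their shNT points, and those of LINC02701 and LINC01503 farthest to the right.

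The 3 genes that passed through 1 group had reads mostly in that group, as their choice requires. LINC01489 had 2, 5 and 3 reads in shNT and 16, 12 and 20 reads in shYES1. LINC01271 had 0.889, 1.29 and 1.27 CPM in shNT and 0.487, 0.257 and 0.204 CPM in shYES1, and LINC01050 had 1.21, 0.832 and 1.90 CPM in shNT and 0.487, 0.770 and 0.409 CPM in shYES1. Their fitted log2 fold changes of 2.02, -1.85 and -1.35 are given as a description.

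Of 20 LINC RNAs described in cancers, 17 matched a current gene symbol and 9 were expressed, of which 3 rose, 3 fell and 3 were not called. The share called was 66.7%, against 48.9% of all tested LINC RNAs and 65.3% of all tested genes. Listed names without a match were not looked up under other names. LINC00460, which lies 105416 bases from EFNB2, had 5.41, 6.81 and 6.78 CPM in shNT and 9.62, 8.64 and 10.2 CPM in shYES1 (0.59, edgeR adjusted p = 1.11e-05). LINC00857 and LINC01503 were the other 2 that rose. LINC00941, linked to TGF-beta signalling in colorectal cancer, had 9.45, 9.31 and 8.68 CPM in shNT and 5.97, 5.65 and 5.93 CPM in shYES1 (-0.63, edgeR adjusted p = 2.50e-06). Its exons overlap a second identifier of the same name on the same strand, so here too reads may have been lost as ambiguous. LINC00973 had 5.09, 5.60 and 5.77 CPM in shNT and 3.53, 4.28 and 3.52 CPM in shYES1 (-0.57, edgeR adjusted p = 0.000557). In all 3 of these genes with values given here the groups did not overlap.

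LINC01133 was the weakest call of that list. It had 0.889, 0.832 and 0.950 CPM in shNT and 0.609, 0.599 and 0.358 CPM in shYES1 (-0.82, edgeR adjusted p = 0.0431). The call was lost with DESeq2 (0.186), library-size scaling (0.0727), no read filter (0.108), and without shNT library 1, 2 or 3 (0.0794, 0.0680 and 0.122) or shYES1 library 2 or 3 (0.0517 and 0.249). LINC00511 (0.10), LINC00662 (0.20) and LINC00963 (-0.09) were not called with TMM scaling. With library-size scaling LINC00511 and LINC00662 passed the threshold (0.0267 and 0.0216) and LINC00963 changed sign to 0.01 (0.876). Of the 8 listed LINC RNAs described to encode small peptides 2 matched a current gene symbol, and both were members. The rest were not looked up under other names, so their levels were not examined. LINC00665, whose peptide is described to bind CIP2A, had 7.68, 9.91 and 8.49 CPM in shNT and 7.97, 6.07 and 6.33 CPM in shYES1 (-0.35, edgeR adjusted p = 0.00881). LINC00467, whose peptide is described at the ATP synthase, had 8.48, 8.40 and 9 CPM in shNT and 6.88, 6.5 and 7.82 CPM in shYES1 (-0.27, edgeR adjusted p = 0.0272). Their groups overlapped for LINC00665 and not for LINC00467, and both calls were lost with DESeq2 (0.0589 and 0.122) and with library-size scaling (0.0574 and 0.156). LINC00665 also lost its call without shNT library 2 (0.0915) or shYES1 library 3 (0.0716), and LINC00467 without shNT library 3 (0.103), shYES1 library 1 (0.0858) or 2 (0.0929), and with no read filter (0.0751).

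None of 5 LINC RNAs known to be enriched in liver was expressed by the rule. LINC01554 had at most 7 reads and LINC01093 at most 1 read in any library, and the other 3 (LINC01018, LINC00844 and LINC00261) had none. A count of 0 allows up to 3 reads, or 0.158 to 0.266 CPM before TMM scaling in these libraries, a limit that covers counting error only.

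Position sorted the 188 genes into classes that exclude each other, with overlap of a coding gene taking precedence over a divergent start. For 146 of them a protein-coding gene lay within 100 kb and for 72 within 10 kb. Over 100 kb from any coding gene were 42 LINC RNAs, of which 41 were tested, with 6 higher, 16 lower and a median log2 fold change of -0.29. The share called was 53.7%, against 48.9% of all tested LINC RNAs and 65.3% of all tested genes. That class held 8 of the 16 called falls of at least 2-fold, or 7 of 14 without the genes that passed through 1 group only. LINC00589, which its shNT reads alone would have admitted, is among those 7. Downstream of a coding gene on its strand, within 10 kb, were 24 genes (4 higher, 9 lower, 54.2% called, median -0.19), and elsewhere within 100 kb were 86 (14 higher, 31 lower, 52.3% called, median -0.19). Of the 12 genes that overlap a coding gene on the same strand 1 was higher and 4 were lower (41.7%). Of the 7 tested genes that overlap one on the other strand 1 was higher and none lower (14.3%). Whether these classes differ was not tested.

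Starts here are the outermost annotated start of each gene in GENCODE, and single transcripts may start elsewhere. Divergent LINC RNAs start within 5 kb of a coding gene's start, on the other strand, and run away from it. Beside LINC01089, which starts 274 bases from SETD1B in this way but overlaps RHOF and is counted there, 16 genes were of this class, 2 higher, 3 lower and 11 not called, with a median log2 fold change of -0.34 (31.3% called). Of the 12 with a RefSeq promoter, 83.3% hold a GC box, with a median of 24.5 CpG and 67.8% GC. Of the 26 promoters over 100 kb from a coding gene, 26.9% hold a GC box, with a median of 6 CpG and 48.7% GC. Over all 134 LINC RNAs with a promoter in the table, 39.6% hold a GC box, 42.5% a CCAAT box and 11.9% a TATA box, with a median of 8 CpG.

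The windows of 2 divergent genes are shown, from pairs that moved together. The first, chr21:45287802-45288101, spans the starts of both LINC00205 and POFUT2 and shares 256 of its 300 bases with the promoter window of POFUT2. It holds 6 GC boxes and 34 CpG. The second, chr10:80207460-80207759, belongs to LINC00857 and holds 1 GC box, 1 CCAAT box and 18 CpG. Both are on the plus strand of GRCh38.p14, with capitals as above.
LINC00205: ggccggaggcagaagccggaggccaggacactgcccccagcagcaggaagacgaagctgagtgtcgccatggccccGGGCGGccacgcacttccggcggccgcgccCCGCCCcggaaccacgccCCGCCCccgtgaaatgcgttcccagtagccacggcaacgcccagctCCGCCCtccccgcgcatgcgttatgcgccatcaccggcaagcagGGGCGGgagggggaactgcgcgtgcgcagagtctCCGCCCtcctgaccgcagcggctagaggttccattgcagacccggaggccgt
LINC00857: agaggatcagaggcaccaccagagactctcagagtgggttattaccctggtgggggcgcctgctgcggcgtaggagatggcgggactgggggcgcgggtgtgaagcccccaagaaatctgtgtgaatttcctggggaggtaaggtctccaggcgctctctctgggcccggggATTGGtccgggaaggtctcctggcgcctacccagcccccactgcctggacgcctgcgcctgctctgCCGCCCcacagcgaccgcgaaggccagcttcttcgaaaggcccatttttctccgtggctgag
Both printed windows hold more CpG than the 3 windows of the far genes that fell most. The window of LINC00938, a divergent gene that was called lower, is not printed. It holds no GC box, 1 CCAAT box and 9 CpG, at 44.3% GC.

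LINC00205 starts 152 bases from POFUT2, which adds fucose to thrombospondin repeats. LINC00205 had 13.4, 12.2 and 11 CPM in shNT and 9.19, 10.3 and 9.09 CPM in shYES1 (-0.36, edgeR adjusted p = 0.000993). POFUT2 had 117.6, 113.5 and 110.4 CPM in shNT and 81.1, 80.6 and 79.4 CPM in shYES1 (-0.50, edgeR adjusted p = 6.82e-17). Both genes of the pair were lower in every shYES1 library. LINC00857 starts 2138 bases from ANXA11, a calcium-dependent phospholipid-binding protein. LINC00857 had 2.26, 1.21 and 2.34 CPM in shNT and 4.50, 2.91 and 3.68 CPM in shYES1 (0.94, edgeR adjusted p = 7.20e-05). ANXA11 had 113.1, 111.3 and 112.2 CPM in shNT and 177.9, 177.9 and 184.1 CPM in shYES1 (0.68, edgeR adjusted p = 7.47e-24). In that pair both genes were higher in every shYES1 library.

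Over all 16 divergent pairs, 10 (62.5%) had log2 fold changes of the same sign, and in 3 pairs both genes were called. The third of these went in opposite directions. LINC01436 starts 671 bases from the outermost annotated start of RUNX1, a transcription factor of the RUNT family. Which start of RUNX1 these cells use was not examined, so a shared start region is not shown. RUNX1 had 95.0, 91.5 and 89.1 CPM in shNT and 53.4, 51.0 and 53.7 CPM in shYES1 (-0.79, edgeR adjusted p = 3.86e-22), while LINC01436 rose. LINC00941 starts 216 bases from CAPRIN2, an RNA-binding protein, by GENCODE. Its RefSeq start lies far from that start, so the divergent position of LINC00941 depends on the annotation. CAPRIN2 had 62.5, 57.2 and 57.0 CPM in shNT and 59.6, 56.5 and 60.7 CPM in shYES1, with overlapping groups (0.01, edgeR adjusted p = 0.841), while LINC00941 fell. LINC00938, which starts 1890 bases from the chromatin remodelling gene ARID2, had 12.4, 12.4 and 13.6 CPM in shNT and 9.68, 11.4 and 10.5 CPM in shYES1 (-0.30, edgeR adjusted p = 0.00325). ARID2 was not called (-0.06). Among divergent LINC RNAs that were not called, the partner was higher for LINC01126 (ZFP36L2, 0.84), LINC00235 (CAPN15, 0.63) and LINC02918 (IPO13, 0.44), and lower for LINC01521 (PATZ1, -0.68), LINC01124 (SP5, -0.57), LINC02615 (PGRMC2, -0.34), LINC01004 (KMT2E, -0.32) and LINC02925 (CELSR1, -0.31).

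Over all neighbours the coding genes followed the background. Within 100 kb of the LINC RNAs 136 distinct coding genes were nearest neighbours and 105 of them were tested. Of these 31 were higher and 40 lower (67.6%, against 65.3% of all tested genes). With library-size scaling 39 were higher and 33 lower, so that the balance between directions turned. In 109 pairs both genes were tested, and 62 (56.9%) had log2 fold changes of the same sign. Both genes were called in 33 pairs, 22 in the same direction and 11 in opposite directions. The Pearson correlation of the log2 fold changes over the 109 pairs was 0.12. It was 0.29 over the 64 pairs on the same strand and -0.17 over the 45 on opposite strands. These values describe pairs measured in the same libraries, and some pairs share a coding gene.

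**Figure D4:**
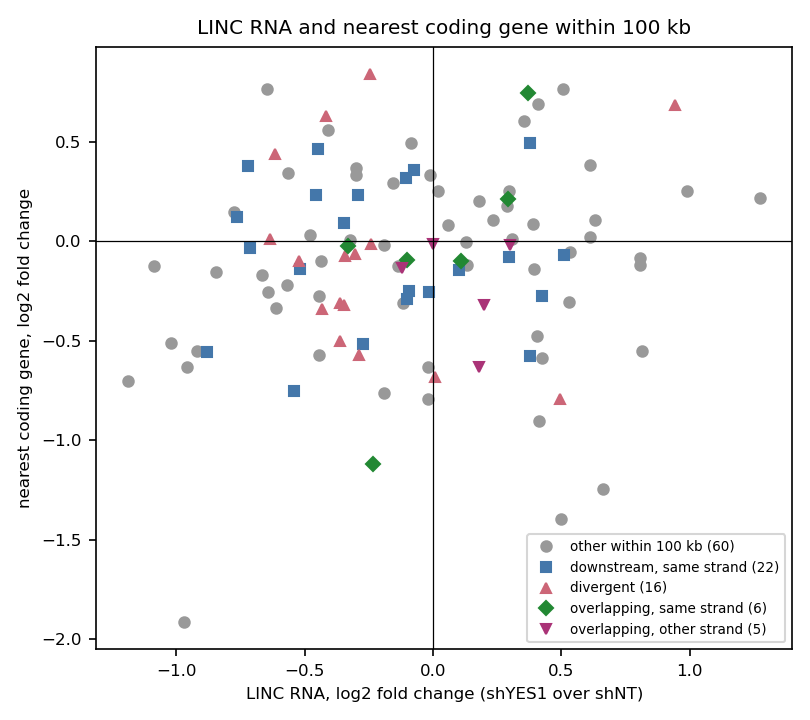
Log2 fold change of each LINC RNA against that of its nearest coding gene within 100 kb, shYES1 over shNT, for 109 pairs in which both were tested, with a marker for each position class. The points spread over all 4 quadrants, with 62 of 109 pairs of the same sign.

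Narrowing the window to 10 kb left 59 pairs, 33 of the same sign (55.9%), and both genes were called in 15. Beside the 2 divergent pairs and LINC00996, 7 of these shared a direction. LINC01089, described as a target of EGF signalling, shares exons on the same strand with RHOF, a small GTPase of filopodia. LINC01089 had 11, 8.70 and 8.68 CPM in shNT and 11.3, 13.4 and 12 CPM in shYES1 (0.37), and RHOF 5.25, 4.39 and 3.74 CPM in shNT and 7.18, 6.84 and 7.92 CPM in shYES1 (0.75). Reads on their shared exons can be lost as ambiguous, so both values are uncertain. LINC02762 (0.38) lies 794 bases past PTS (0.49), an enzyme of tetrahydrobiopterin synthesis, and both rose. LINC00957 (0.63) and DBNL (0.11) were both higher. LINC00467 and TRAF5 (-0.52), LINC00862 (-0.88) and ZNF281 (-0.56), LINC01278 (-0.23) and SPIN4 (-1.12), and LINC02709 (-0.84) and SWAP70 (-0.15) were both lower.

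SPIN4, a single-exon spindlin gene inside LINC01278 on the same strand, had 12.9, 12 and 13.9 CPM in shNT and 6.33, 5.56 and 5.93 CPM in shYES1, a wider gap than that of LINC01278. The calls on LINC00862, LINC01278 and LINC02709 were lost with DESeq2 (0.0724, 0.108 and 0.116). LINC00862 lost it too without shNT library 3 (0.140) or shYES1 library 1 (0.0602), and LINC02709 without shNT library 1 (0.0741) or shYES1 library 3 (0.162). LINC01278 lost it without shNT library 1 or 3 (0.0777 and 0.0979) or shYES1 library 1 (0.0857), with library-size scaling (0.174) and with no read filter (0.0526). SWAP70 lost it with library-size scaling (0.252), which also moved DBNL from 0.11 to 0.21 and TANK from 0.12 to 0.22.

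Opposite directions were called in 5 of the 15 pairs. RUNX1 and LINC01436 made one of them. LINC03060 rose, with 5.01, 5.68 and 5.64 CPM in shNT and 7.12, 7.44 and 6.84 CPM in shYES1 (0.38, edgeR adjusted p = 0.00609). AKR1B1, the aldose reductase gene 9897 bases upstream on the same strand, had 771.3, 799.2 and 782.8 CPM in shNT and 520.9, 540.3 and 518.2 CPM in shYES1 (-0.58, edgeR adjusted p = 4.48e-25). LINC01806 fell, with 8.65, 11.2 and 11.8 CPM in shNT and 5.54, 6.24 and 6.95 CPM in shYES1 (-0.76, edgeR adjusted p = 1.47e-07), while TANK, 8518 bases away, was slightly higher (0.12). LINC02035 (-0.29) and SLC49A4 (0.23), and LINC02977 (-0.45) and SUSD1 (0.23), were the other 2 pairs. The calls on LINC02035 and LINC02977 were lost with DESeq2 (0.127 and 0.147), with library-size scaling (0.166 and 0.0849), with no read filter (0.0814 and 0.0632) and without several single libraries. For LINC02035 these were shNT 1 and 2 (0.0518 and 0.111) and shYES1 1 and 2 (0.155 and 0.149), and for LINC02977 shNT 2 and 3 (0.0795 and 0.0595) and shYES1 3 (0.278). Without shYES1 library 3 the log2 fold change of LINC02035 was -0.46 and that of LINC02977 -0.25.

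At longer distance some neighbours were genes of growth and stress responses, chosen here after their values were seen. LINC02649 had 1.54, 1.97 and 1.58 CPM in shNT and 0.609, 1.28 and 0.817 CPM in shYES1 (-0.97, edgeR adjusted p = 0.00233). It lies 23043 bases from PFKFB3, which makes the glycolytic activator fructose 2,6-bisphosphate. PFKFB3 had 185.8, 195.9 and 182.9 CPM in shNT and 52.2, 47.7 and 49.4 CPM in shYES1 (-1.91, edgeR adjusted p = 1.52e-38). Both were lower in all shYES1 libraries. LINC02777 (-0.96) lies 98541 bases from JUN (-0.63), the AP-1 subunit, and its call was lost with DESeq2 (0.0807) and without shNT or shYES1 library 3 (0.0765 and 0.0968). LINC01091 (0.80) lies 246507 bases from SPRY1 (-1.01), an inhibitor of receptor tyrosine kinase signalling, which fell from 14.1, 15.1 and 16.2 CPM to 7.18, 8.04 and 7.51 CPM.

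Some LINC RNAs lie next to each other. Within 100 kb there were 12 pairs of expressed LINC RNAs, and 7 of these overlap on opposite strands. LINC01443 and LINC01444 overlap at chr18:14969001-14970468, and both were called, in opposite directions. LINC01443 had 2.34, 1.97 and 2.41 CPM in shNT and 4.26, 3.51 and 3.98 CPM in shYES1 (0.81, edgeR adjusted p = 7.76e-05). LINC01444 had 7.35, 7.04 and 7.73 CPM in shNT and 4.75, 4.11 and 4.75 CPM in shYES1 (-0.69, edgeR adjusted p = 5.05e-06). Neither gene's groups overlapped. With unstranded counts the value of LINC01443 moved to 0.42.

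LINC01270 and LINC01271 overlap about 100 kb from CEBPB, a transcription factor of the acute phase response. Since LINC01271 passed the read rule through the shNT libraries only, its lower level in shYES1 was fixed by that choice and adds nothing to the values of its neighbours. LINC01270 had 7.19, 8.17 and 7.79 CPM in shNT and 5.78, 4.88 and 4.14 CPM in shYES1 (-0.66, edgeR adjusted p = 1.43e-05). Of the stranded reads on LINC01271, 335 were on the forward and 63 on the reverse column (15.8% reverse), against a median of 98.8% reverse over all members. CEBPB itself had 310.3, 307.5 and 323.9 CPM in shNT and 217.5, 211.5 and 211.1 CPM in shYES1 (-0.56). Forward reads also outnumbered reverse reads on LINC00526, LINC01772 and LINC01943. The adjacent LINC01128 and LINC01409, on 1 strand of chromosome 1 with 15078 bases between them, were higher (0.51) and lower (-0.53). The call on LINC01409 was lost with DESeq2 (0.132), library-size scaling (0.0758), no read filter (0.0779) and without shNT library 1 or 2 (0.0648 and 0.105) or shYES1 library 2 or 3 (0.0703 and 0.0704). LINC02987 (-0.34) overlaps LINC00662 (0.20, not called), and its call was lost with DESeq2 (0.0877), library-size scaling (0.0762) and without shNT library 2 (0.0867) or shYES1 library 3 (0.0722).

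Counting can also blur genes that share exons on a strand. Of the LINC RNAs, 26 share exonic bases with a different annotated gene on their own strand, and of these 1 was higher and 10 were lower. The share called was 42.3%, against 48.9% of all tested LINC RNAs and 65.3% of all tested genes. By direction 3.85% of the 26 were higher and 38.5% lower, against 15.1% and 33.9% of all tested LINC RNAs. Whether shared exons affect the calls was not tested. LINC03033 is among the 26, as its exons overlap AL355916.2. Genes of miRNAs lie inside 3 members. LINC00472 holds MIR30A and MIR30C2 and had 1.94, 3.03 and 2.72 CPM in shNT and 2.19, 2.57 and 1.74 CPM in shYES1, with overlapping groups and no call (-0.30, edgeR adjusted p = 0.206). LINC01138 holds MIR5087 and was lower (-0.47), and LINC01505 was described above. The miRNAs themselves are not measured in poly(A) libraries of this kind.

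The sequence CCTTTC in the longest transcript was followed because earlier results of the same data had named it, so the split below supports nothing. It occurred in 115 LINC RNAs (61.2%) and in 69.0% of tested coding genes. With it 18 LINC RNAs were higher (15.7%) and 47 lower (40.9%), at a median log2 fold change of -0.29. Without it 71 were tested, 10 higher (14.1%) and 16 lower (22.5%), at a median of -0.09. Of tested coding genes with it 33.1% were higher and 39.3% lower, at a median of -0.03, and of those without it 44.1% were higher and 23.4% lower, at a median of 0.11. Transcripts of LINC RNAs with the sequence were longer, at a median of 2622 bases against 1355.

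Genes that process and export noncoding RNA moved in both directions. Of 38 such genes 10 were higher and 14 lower (63.2%, against 65.3% of all tested genes), with a median log2 fold change of -0.07. With library-size scaling 16 were higher and 9 lower, so the balance between directions turned with the scaling. RBM7, the RNA-binding subunit of a nuclear exosome adaptor, averaged 29.1 ± 1.97 CPM in shNT and 13.5 ± 0.451 CPM in shYES1 (SD, n = 3 each). It fell in every shYES1 library, by 1.10 on the log2 scale (edgeR adjusted p = 1.85e-18). Its partners MTREX (-0.00283) and ZCCHC8 (-0.08) were not called. NCBP1, the large subunit of the nuclear cap-binding complex, was lower (-0.52).

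Exosome subunits were split as well. EXOSC4 (0.62) and the cofactors MPHOSPH6 (0.42) and C1D (0.32) were higher, while EXOSC6 (-0.46) and EXOSC8 (-0.39) were lower. In the Integrator complex, which ends transcription of many noncoding RNAs early, INTS11 (0.35) was higher and INTS9 (-0.43) lower. The poly(A) polymerase PAPOLA was lower (-0.27). The part of any of these genes in the LINC RNA levels was not tested.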

How the data were processed

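The authors deposited read counts per gene, whole numbers without normalization, in 1 file per library with an unstranded column and a column per strand. STAR 2.5.1b, Trimmomatic 0.35 and CASAVA 1.8.2 and the build GRCh38 are named in the submitters' processing notes, and the annotation release was not given in the sources used here. Poly(A) libraries were prepared with a stranded KAPA kit after Trizol extraction and column purification, per the labels' protocols. The reverse-strand column was used, since it held 93.5% to 94.0% of stranded gene reads. Entries that name no gene (19.8% to 20.3% of reads) were left out.

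Of 58219 identifiers, 57437 matched a symbol and 57881 a gene of GENCODE 29, as did all 188 members (167 in the same version). That release gave coordinates, types and neighbours. Promoters came from RefSeq on GRCh38.p14 and matched 134 members. The 2 whose RefSeq start lay far from the GENCODE start, LINC00941 and LINC02701, were not printed.

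In R 4.3.3, edgeR 4.0.16 (filterByExpr with a minimum count of 10, TMM, robust quasi-likelihood test) compared shYES1 with shNT over 14239 genes, with Benjamini-Hochberg adjustment over all of them and a threshold of 0.05. Standard errors are log2 fold changes divided by the square root of F, which is approximate. The script was tested on simulated data. Alternatives were DESeq2 1.42.0, RLE and library-size scaling, other read filters, unstranded counts, a replicate block and leaving out each library; membership by GENCODE 29 names was added after seeing the data.

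Members and lists were chosen with earlier results of these data known. Named are YES1, the 10 LINC RNAs highest per kb, the 12 largest rises and falls among called members with a mean of at least 1 CPM, tested members of the cancer, peptide and liver lists, and coding neighbours called within 10 kb of a called member; other names were chosen after their values were seen. Multimapping reads are not in the per-gene counts, so near-identical copies can lose reads.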

Additional observations from a re-analysis of the deposited data

How the results depend on the processing

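With DESeq2, 18 LINC RNAs were higher and 42 lower, against 28 and 63. With library-size scaling 36 were higher and 50 lower, 16 of the nuclear RNA decay and export genes were higher and 9 lower, and LINC00963 turned to a log2 fold change of 0.0114. The cause was not tested. Leaving out 1 library gave 21 to 26 LINC RNAs higher and 54 to 61 lower, 4342 to 4500 genes higher and 4409 to 4584 lower, 29 to 33 coding neighbours higher and 35 to 41 lower, and 8 to 9 decay and export genes higher and 11 to 15 lower. RLE scaling gave 28 and 63, unstranded counts 31 and 65, no read filter 24 and 56, and a 1 CPM filter 28 and 57. No called LINC RNA changed sign under these alternatives, and 55 of the 91 were called under every one. A minimum of 5 reads would give 275 members and of 20 reads 134. Same-numbered libraries correlated at 0.0144, 0.0278 and 0.00452 in their deviations from the group means, and the main test did not pair them. These correlations over all tested genes include counting noise, so they cannot show whether same-numbered libraries were handled together. With a replicate block 29 LINC RNAs were higher and 64 lower, and no named call changed. Of the 186 tested LINC RNAs 134 lie under 5 CPM, where 38.1% were called, against 76.9% of the 52 at 5 CPM or more. The part of read depth in that gap was not tested. Groups of 3 are too small for an outlier test.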
